A study of Danio rerio with 11 samples.

Results

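The genes described here encode the proteins that shorten the poly(A) tail, remove the cap and degrade mRNA, together with the adaptors that bring these enzymes to a transcript. They were matched by symbol, by the stems of the families listed below (cnot, pan, parn, btg, tob, dcp, edc, lsm, xrn, exosc, ago, tnrc6, upf, smg, pum and zfp36, with a number where the family has one). Of the 32520 Ensembl genes in the count tables, 76 matched. These genes were chosen with earlier results of these data known. CNOT8 carries the identifier ENSDARG00000020043, and 6 identifiers share a symbol in sets of 2 (CNOT4, LSM2 and ZFP36L1), so these are printed with their identifiers. By role, 14 genes belong to the CCR4-NOT deadenylase, 3 to PAN2-PAN3 and PARN, 6 to the BTG and TOB adaptors, 6 to decapping, 9 to the LSM ring, 2 to the XRN exonucleases, 10 to the exosome, 11 to Argonaute and GW182 proteins, 9 to nonsense-mediated decay (NMD), 3 to Pumilio and 3 to ZFP36. Their own mRNAs were measured here, not the activity of the proteins.

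In the cytoplasm, decay of most mRNAs begins with removal of the poly(A) tail. PAN2-PAN3 trims long tails and CCR4-NOT, with its catalytic subunits of the Caf1 type (CNOT7 and CNOT8) and of the Ccr4 type (CNOT6 and CNOT6L), removes the rest. The message is then decapped by DCP2 with the help of the LSM1-7 ring and digested by XRN1, or digested from its other end by the exosome. Eggs and early embryos of many animals keep maternal mRNAs with short tails in a dormant form, and clear them in large numbers around the onset of zygotic transcription.

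Lysates of zebrafish embryos at the 8-cell stage gave all libraries, and all embryos carried a transgene in which the actb2 (beta-actin) promoter drives an eIF4E protein fused to 3xflag-sfGFP. The first genotype was tg(actb2:3xflag-sfGFP-eIF4E1b) and the second tg(actb2:3xflag-sfGFP-eIF4E1c). Both proteins are members of the eIF4E family of cap-binding factors. In RNA immunoprecipitation (RIP), tagged protein was pulled from the lysate on anti-GFP beads and the RNA that came with it was sequenced, to ask which mRNAs each protein carries. The groups were eIF4E1b RIP (3 libraries), eIF4E1c RIP (2), eIF4E1b input (3) and eIF4E1c input (3), where input is total RNA of the lysate. The tagged proteins were made from an added promoter, the embryos' own eIF4E proteins were not stated to be removed, and a pull-down from untagged embryos was not analysed here. RIP and input libraries were made with different kits, so in any comparison of RIP with input the kit and the pull-down cannot be told apart.

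The libraries held between 6943631 and 13993294 counts, and the first eIF4E1c RIP library was the shallowest, with counts for 15114 genes against 17520 to 19591 in the other libraries. The decay genes took between 0.723% and 0.997% of the counts of a library. Of 12 maternal and germline transcripts matched as markers of the labelled stage, 12 exceeded 1 CPM (counts scaled to the depth of the library) in every input, and together they reached 3223 to 4062 CPM. Of 11 matched transcripts of later cell types, 8 stayed under 1 CPM in every input, and 1, GSC, exceeded it in every input (1.16 to 2.80 CPM). Together the 11 summed to between 3.89 and 5.85 CPM in an input. The mRNA of EIF4E1B had 767, 585 and 607 normalized counts in eIF4E1b inputs, against 139, 203 and 193 in eIF4E1c inputs, and that of eif4e1c had 583, 544 and 527 in eIF4E1b inputs, against 939, 933 and 820 in eIF4E1c inputs, so each input was highest for the protein named on its label. Values per gene below are normalized counts, that is counts divided by a scaling factor of the library, and can be compared between libraries but not between genes of different length. Unless edgeR is named, fold changes and adjusted p-values were computed with DESeq2, and a gene was called at an adjusted p under 0.005.

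Between the RIPs, 5 of the 73 decay genes tested were called. CNOT8 and CNOT7, the Caf1-type deadenylases, and TNRC6A, a GW182 protein that links Argonautes to deadenylation, were lower in eIF4E1b RIP than in eIF4E1c RIP. PUM3, a Puf-family protein of the nucleolus, and ZFP36L2, which binds AU-rich elements and recruits deadenylases, were higher. The share called, 6.85%, was close to that of all genes tested, which was 7.95% (3.44% higher and 4.51% lower), so these calls concern the single genes and not the genes as a set. edgeR called 0 of the decay genes at that threshold, beside 0.0268% of all genes (0.0134% higher and 0.0134% lower). It called 7 at an adjusted p under 0.05, beside 8.82% (3.24% higher and 5.58% lower). At an unadjusted p under 0.05 edgeR had 15, and the share of all genes at that level is not given here. The median log2 fold change was -0.05 over the decay genes and -0.01 over all genes tested. The 3 genes not tested were LSM2 ENSDARG00000070867, at 0 in every library, ZFP36L1 ENSDARG00000021443, with 10.6 normalized counts in 1 eIF4E1b RIP library and under 1 in every other library, and tnrc6bb.2, at 7.27, 6.12 and 4.26 in eIF4E1b RIP, against 0 and 4.64 in eIF4E1c RIP. They had no adjusted p in DESeq2.

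**Figure D1:**
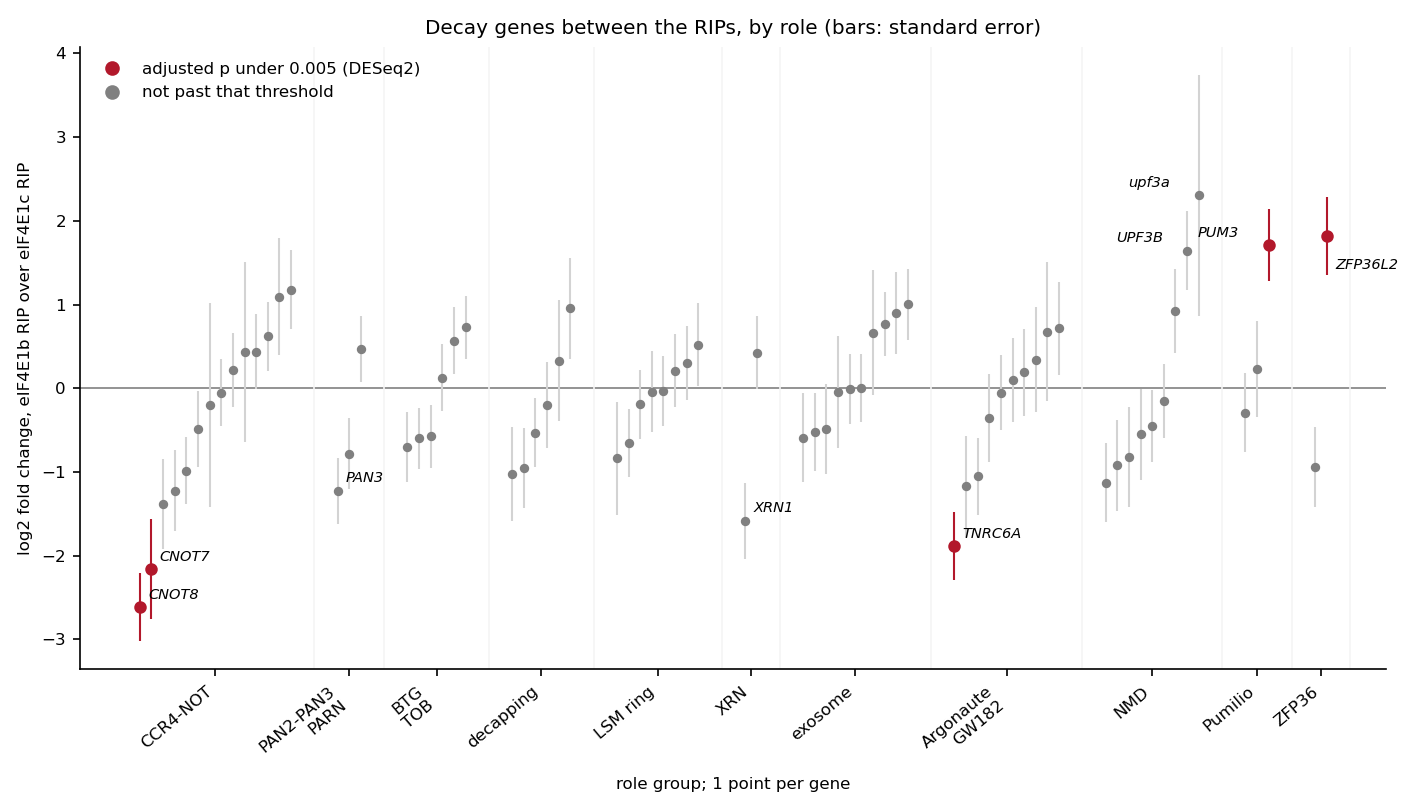
Each point is 1 of the 73 decay genes tested, grouped along the x axis by role. The y axis is the log2 fold change of eIF4E1b RIP over eIF4E1c RIP, bars are standard errors, and red marks the 5 genes called (CNOT8 at -2.62 is the lowest of all, ZFP36L2 at 1.82 the highest of those called), while most other genes lie within 1 unit of 0.

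CNOT8, a catalytic subunit of CCR4-NOT, had 204, 198 and 177 normalized counts in eIF4E1b RIP libraries, against 1253 and 1015 in eIF4E1c RIP libraries. It had 616, 610 and 682 in eIF4E1b inputs, against 461, 414 and 587 in eIF4E1c inputs. The eIF4E1b RIP libraries were the lowest of all 11 and the eIF4E1c RIP libraries the highest, with the inputs between them and no overlap between the RIPs. CNOT8 differed by -2.62 ± 0.40 (SE) on the log2 scale between the RIPs, a 6.13-fold lower level in eIF4E1b RIP, with an adjusted p of 2.95e-08 in DESeq2. It was called whichever eIF4E1b RIP library was left out. Over the fits without any given RIP library, its log2 fold change lay between -2.77 and -2.47. Fits without an eIF4E1c RIP library keep a lone library in that group, so the spread of that group is not measured in them. edgeR gave a log2 fold change of -2.61 and an adjusted p of 0.00536, just outside the threshold.

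CNOT7, the closest paralogue of CNOT8 and an alternative to it in the complex, had 175, 118 and 93.7 normalized counts in eIF4E1b RIP, against 859 and 249 in eIF4E1c RIP. Its inputs held 364, 309 and 296 for eIF4E1b, against 225, 309 and 201 for eIF4E1c. The RIPs did not overlap, but the eIF4E1c RIP libraries stood 3.45-fold apart and the lower of them was within the range of the inputs. CNOT7 differed between the RIPs by a log2 fold change of -2.16 ± 0.59 with an adjusted p of 0.00383 in DESeq2 and of 0.0356 in edgeR. Without the first eIF4E1c RIP library it was -1.02, and without the second it was -2.80, each with a lone eIF4E1c library. Of the fits that left out an eIF4E1b RIP library, only that without the first kept the call.

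Reads that match both CNOT7 and CNOT8 could be assigned to either, and how the counting treated such reads is not given in the sources used here. CNOT6, CNOT6L and cnot6b, the deadenylases of the Ccr4 type, were not called between the RIPs, at log2 fold changes of 0.44 ± 0.44, 0.43 ± 1.07 and -0.99 ± 0.40. The other 9 subunits were not called either. Among them CNOT9, a subunit that binds recruiting proteins, stood at -1.39 ± 0.54, CNOT1, the scaffold, at -1.23 ± 0.48, and CNOT3, a subunit of the regulatory module, at 1.18 ± 0.47. Of the 14 genes of the complex, 8 had a negative and 6 a positive log2 fold change, with a median of -0.13.

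PAN3, the adaptor subunit of PAN2-PAN3, had 445, 371 and 421 normalized counts in eIF4E1b RIP, against 1007 and 840 in eIF4E1c RIP. Its log2 fold change of -1.23 ± 0.40 was not called between the RIPs, with a DESeq2 adjusted p of 0.0165, although the libraries did not overlap. PAN2, its nuclease partner, stood at -0.78 ± 0.42 and parn, a separate poly(A)-specific nuclease, at 0.47 ± 0.39, and neither was called.

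XRN1, the cytoplasmic 5′ to 3′ exonuclease, had 249, 213 and 143 normalized counts in eIF4E1b RIP, against 596 and 564 in eIF4E1c RIP. Again the RIPs did not overlap, and the eIF4E1c libraries agreed to within 1.06-fold. Its log2 fold change was -1.58 ± 0.46 with a DESeq2 adjusted p of 0.00600, just outside the threshold, and 0.0390 in edgeR. XRN2, its nuclear relative, stood at 0.42 ± 0.43. None of the 6 decapping genes was called: their log2 fold changes ran from -1.02 ± 0.56 for EDC3, an enhancer of decapping, to 0.95 ± 0.60 for DCP2, the decapping enzyme itself. None of the 8 LSM genes tested, the 10 exosome genes or the 6 BTG and TOB adaptors was called between the RIPs, with medians of -0.04, -0.00 and -0.22. BTG4, which is required for clearance of maternal mRNA in mouse, was at 0.13 ± 0.41.

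TNRC6A had 1572, 1298 and 1298 normalized counts in eIF4E1b RIP, against 6101 and 3730 in eIF4E1c RIP. All eIF4E1b libraries lay below both eIF4E1c libraries. TNRC6A differed by -1.89 ± 0.40 on the log2 scale, with an adjusted p of 0.000113 in DESeq2 and of 0.0148 in edgeR. Of the fits that left out an eIF4E1b RIP library, only that without the first kept the call. Its inputs did not overlap either, with 3352, 4105 and 4699 for eIF4E1b, against 5530, 4795 and 5369 for eIF4E1c, a log2 fold change of -0.36 ± 0.15 that was not called (DESeq2 adjusted p 0.133). The share of all genes whose inputs did not overlap is not given here. No other of the 10 Argonaute and GW182 genes tested was called between the RIPs, and the median over the 10 was 0.02.

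PUM3 had 6083, 7385 and 12380 normalized counts in eIF4E1b RIP, against 2649 and 2379 in eIF4E1c RIP. The 2 eIF4E1c libraries were close to each other, and the eIF4E1b libraries were all higher but spread over a wider range. The log2 fold change was 1.71 ± 0.43 with an adjusted p of 0.00130 in DESeq2 and of 0.0411 in edgeR. Of the fits that left out an eIF4E1b RIP library, only that without the first kept the call. PUM2, which binds target mRNAs and recruits CCR4-NOT, stood at 0.23 ± 0.57 and was not called.

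ZFP36L2 had 7533, 6352 and 10617 normalized counts in eIF4E1b RIP, against 1336 and 3090 in eIF4E1c RIP. The groups did not overlap, but the eIF4E1c libraries differed by more than those of PUM3. The log2 fold change was 1.82 ± 0.47 with an adjusted p of 0.00176 in DESeq2 and of 0.0445 in edgeR. The call was lost whichever eIF4E1b RIP library was left out. Without the first eIF4E1c RIP library the log2 fold change was 1.32, and without the second 2.54, each with a lone eIF4E1c library. ZFP36L1 ENSDARG00000016154, a relative with the same kind of binding domain, stood at -0.94 ± 0.48 and was not called.

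UPF3B, which connects the exon junction complex to UPF1 in NMD, was just outside the threshold between the RIPs, with 10051, 18140 and 24740 normalized counts in eIF4E1b RIP, against 6709 and 4078 in eIF4E1c RIP. No eIF4E1b library reached down to the eIF4E1c libraries. Its log2 fold change was 1.64 ± 0.47 with an adjusted p of 0.00624 in DESeq2 and of 0.0688 in edgeR. Its paralogue upf3a had a larger estimate, 2.30 ± 1.44, at no more than 22.4 normalized counts in any library, and UPF1, the helicase of the pathway, stood at -1.13 ± 0.47. Neither was called.

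**Figure D2:**
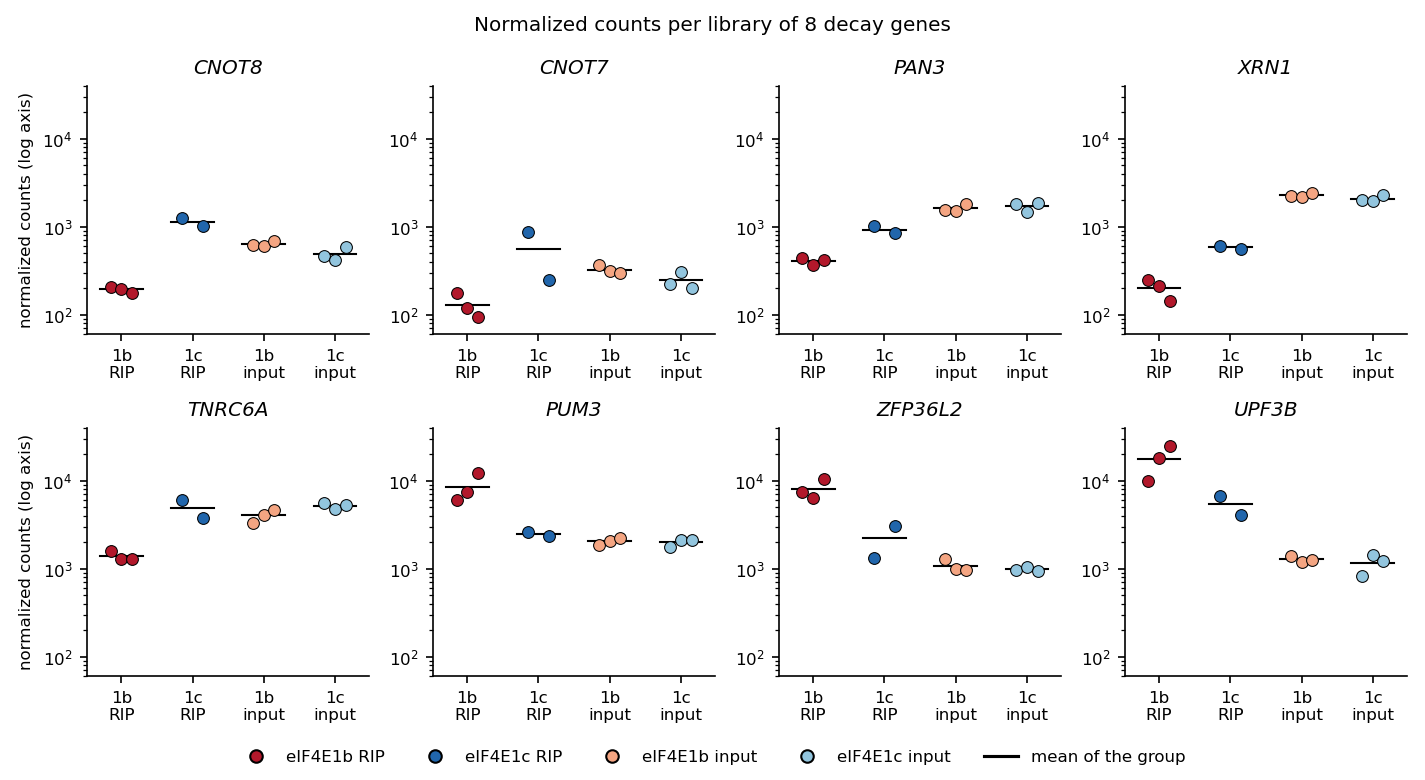
Each panel is 1 gene, each point 1 library, and the y axis is the normalized count on a log scale. From left to right the groups are eIF4E1b RIP (3 libraries), eIF4E1c RIP (2), eIF4E1b input (3) and eIF4E1c input (3), with a bar at the mean. The 8 genes were picked by their results in these data, and the RIPs do not overlap for any of them. Among all genes tested, eIF4E1b RIP lay wholly above for 24.7% and wholly below for 20.2%. For CNOT7 and ZFP36L2 the 2 eIF4E1c RIP libraries are far apart.

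Judged by order alone, 15 of the 73 genes (20.5%) had all eIF4E1b RIP libraries above both eIF4E1c RIP libraries and 18 (24.7%) had all below. Among all genes tested these shares were 24.7% above and 20.2% below, so lack of overlap by itself was as common in the rest of the transcriptome. RIP libraries varied more than inputs: the highest and lowest library differed by over 2-fold for 16 of the 73 genes in eIF4E1b RIP and for 26 in eIF4E1c RIP, against 1 in eIF4E1b input and 2 in eIF4E1c input. At this spread, and with 2 eIF4E1c RIP libraries, the median standard error of a log2 fold change was 0.47 between the RIPs. Differences of over 3 times that size, such as those of XRN1 and UPF3B, were not called.

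Among inputs, 0 of the 73 decay genes tested were called by DESeq2, beside 2.33% of all genes tested (0.89% higher and 1.44% lower), and 0 by edgeR, beside 0.0963% (0.0825% higher and 0.0138% lower). At an unadjusted p under 0.05 there were 15 genes by DESeq2 and 15 by edgeR. The share of all genes at that threshold is not given here, so these counts have no comparison. The median standard error was 0.16, and all log2 fold changes lay between -0.47 and 0.70. The input levels of CNOT8 and CNOT7 stood at 0.39 ± 0.17 and 0.40 ± 0.22, opposite in sign to their differences between the RIPs and not called. For CNOT8 all eIF4E1b inputs lay above all eIF4E1c inputs, which adds to its difference in RIP to input ratio given below. The 8 LSM genes tested all had positive values, between 0.13 and 0.64, and none was called.

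Each RIP was next set against its own input. In eIF4E1b RIP, 55 of 74 decay genes tested were called, 23 higher and 32 lower than in eIF4E1b input. That is 74.3%, beside 46.2% of all genes tested (23% higher and 23.2% lower). In eIF4E1c RIP, 40 of 73 were called, 20 higher and 20 lower than in eIF4E1c input, or 54.8%, beside 34% of all genes (17.2% higher and 16.8% lower). With the replicate block, which pairs each RIP with its input, 24 were called for eIF4E1c, or 25 with the second RIP library paired to the third input. In the fits without the block the shares were above those of all genes for both proteins. The genes compared were not matched to the decay genes in count level, so the excess is not read as particular to decay genes. The share of all genes under the block is not given here, so the counts of 24 and 25 have no such comparison. Since members were not sampled at random, no test was made of the excess without the block. The kit and the pull-down cannot be told apart in these values.

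The role groups differed in direction. Of all genes tested, 23% were higher and 23.2% lower in eIF4E1b RIP than in its input, and 17.2% and 16.8% in eIF4E1c RIP. Roles were set with earlier results of these data known, and no test was made over a role group. In the LSM ring, 7 of 8 genes were higher in eIF4E1b RIP than in its input and 7 of 8 in eIF4E1c RIP, with medians of 2.17 and 2.89, and none was lower. LSM7, a subunit of both the cytoplasmic and the nuclear ring, had 1233, 2044 and 2152 normalized counts in eIF4E1b RIP, against 95.2, 79.2 and 120 in its inputs, and 673 and 1741 in eIF4E1c RIP, against 86.2, 88.6 and 66.0 in its inputs. Every RIP library was above every input. Its log2 fold changes were 4.18 ± 0.29 and 3.91 ± 0.49. LSM2 ENSDARG00000103066 stood at 4.01 ± 0.29 for eIF4E1b and 4.74 ± 0.31 for eIF4E1c, and LSM6 at 3.74 ± 0.29 and 3.64 ± 0.34. LSM5 was the gene of the ring not called in either.

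The BTG and TOB adaptors, which bridge CCR4-NOT and the poly(A)-binding protein, were also higher, 5 of 6 for eIF4E1b and 4 of 6 for eIF4E1c. btg3 stood at 1.88 ± 0.22 and 2.45 ± 0.24, and BTG4 at 1.43 ± 0.25 and 1.48 ± 0.30. Of the 10 exosome genes, 6 were higher and 1 lower for eIF4E1b, and 7 higher and 1 lower for eIF4E1c. The lower one was EXOSC1, a cap subunit of the exosome, at -3.30 ± 0.30 and -4.36 ± 0.57.

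Argonaute and GW182 genes went the other way, with 10 of 11 lower and none higher for eIF4E1b, and 8 of 11 lower and none higher for eIF4E1c. AGO2, an Argonaute, had 103, 101 and 58.6 normalized counts in eIF4E1b RIP, against 1932, 1642 and 1641 in its inputs. In eIF4E1c RIP it had 55.6 and 76.1, against 1651, 1435 and 1680 in its inputs. Every RIP library was below every input. AGO2 stood at -4.34 ± 0.27 and -4.57 ± 0.33, AGO4 at -4.47 ± 0.26 and -3.27 ± 0.48, and ago3a at -2.87 ± 0.24 and -3.74 ± 0.35. TNRC6C was not called in either RIP, at 0.32 ± 0.27 and -0.08 ± 0.45.

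CCR4-NOT was mixed. For eIF4E1b, 8 of 14 genes were lower and 1, CNOT3, was higher, and for eIF4E1c 5 were lower and 1, CNOT8, was higher. CNOT4 ENSDARG00000007045, a ubiquitin ligase of the complex, had the lowest values, -3.35 ± 0.26 and -4.49 ± 0.42, and its duplicate CNOT4 ENSDARG00000007639 stood at -1.20 ± 0.24 and -1.25 ± 0.26. In decapping, 4 of 6 genes were lower for eIF4E1b and 2 of 6 for eIF4E1c, DCP2 (-1.34 ± 0.29 and -1.98 ± 0.43) and EDC4, a decapping scaffold (-2.55 ± 0.31 and -2.64 ± 0.32), in both. XRN1 was lower in both, at -3.54 ± 0.25 and -1.85 ± 0.27, while XRN2 was not called in either. Of the NMD genes, UPF3B was higher in both RIPs, at 3.76 ± 0.30 and 2.21 ± 0.39. PUM3 and ZFP36L2 were higher in eIF4E1b RIP, at 2.04 ± 0.28 and 2.90 ± 0.26, and were not called in eIF4E1c RIP, at 0.33 ± 0.27 and 1.16 ± 0.42. PAN3 was lower in eIF4E1b RIP at -2.01 ± 0.22 and stood at -0.90 ± 0.29 in eIF4E1c RIP (not called).

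Of the 23 genes higher in eIF4E1b RIP than in its input, 18 (78.3%) were among the 20 higher in eIF4E1c RIP (90% of those). Of the 32 lower genes, 19 (59.4%) were among the 20 lower in eIF4E1c RIP (95%). Over all genes, 49.5% of the higher and 50.7% of the lower calls of eIF4E1b RIP were shared, and 74.9% and 79.5% of those of eIF4E1c RIP. These shares count every call, also of genes not tested for the other protein, which could not be shared. In all, 17123 genes were tested for eIF4E1b, 15131 for eIF4E1c and 14907 for both, while nearly all decay genes were tested for both. The difference between these shares was not tested. The 2 RIPs share no library, but they share the kit.

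CNOT8 was the 1 gene of 73 called in opposite directions: it was lower in eIF4E1b RIP than in eIF4E1b input, at -1.75 ± 0.23 (DESeq2 adjusted p 5.08e-13), and higher in eIF4E1c RIP than in eIF4E1c input, at 1.22 ± 0.33 (DESeq2 adjusted p 0.000731). Among the 14907 genes tested in both, 38 (0.255%) had this pattern. The first of these calls held under all 14 alternatives. The second was lost without any 1 of the 3 eIF4E1c inputs (adjusted p between 0.00899 and 0.0408), in edgeR (0.00737), with scaling to total counts (0.0104) and with the replicate block (0.0232, or 0.0655 with the second RIP library paired to the third input). CNOT7 stood at -1.35 ± 0.30 (called) and 1.18 ± 0.57 (not called, adjusted p 0.0750), and the second value was 0.06 without the first eIF4E1c RIP library.

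**Figure D3:**
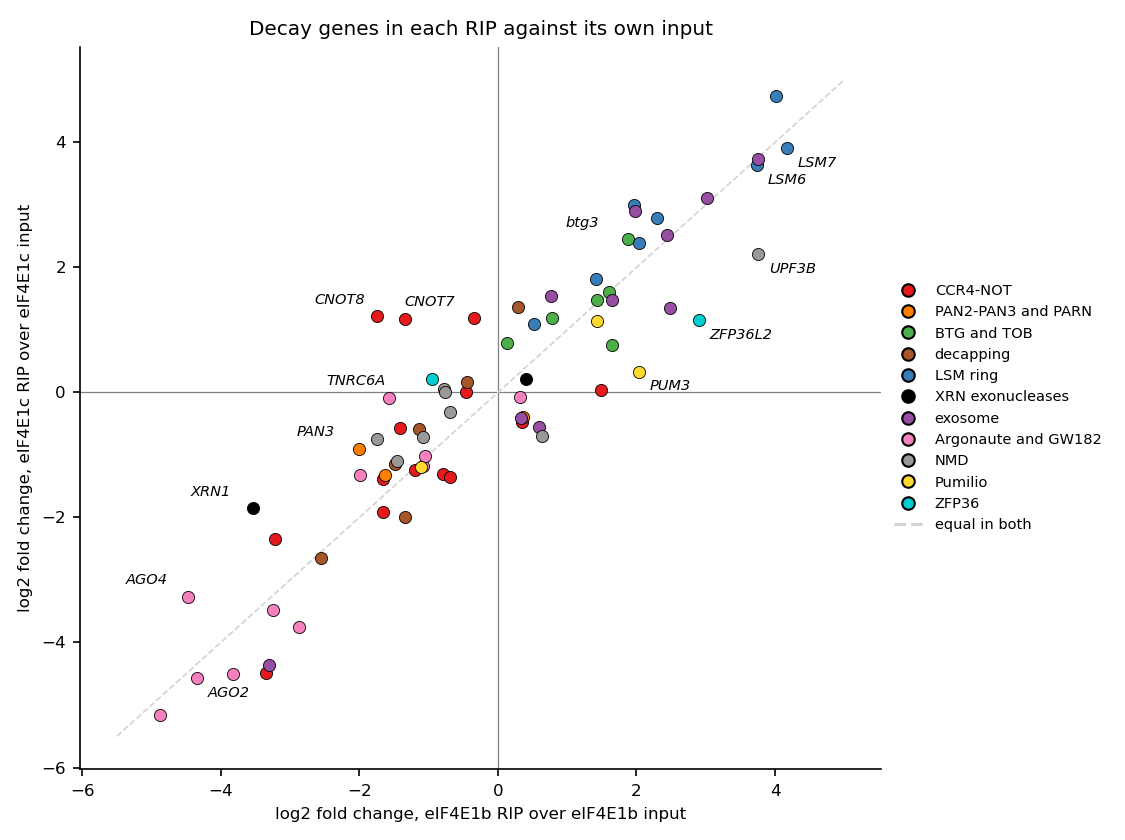
Each point is 1 of 73 decay genes, coloured by role. The x axis is the log2 fold change of eIF4E1b RIP over its input and the y axis that of eIF4E1c RIP over its input, with equality on the dashed line. LSM genes (blue) lie at the upper right and most Argonaute and GW182 genes (pink) at the lower left, while CNOT8 (-1.75, 1.22) and CNOT7 (-1.35, 1.18) lie at the upper left.

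The difference in RIP to input ratio, eIF4E1b minus eIF4E1c, was tested directly over all 11 libraries. An effect of the kit that scales a gene alike for both proteins cancels in it. It uses the same RIP libraries as the comparison between the RIPs and is not a repeat of it. Fits of the ratio without an eIF4E1c RIP library keep a lone library in that group, and its spread is then taken from the other groups. Of 73 decay genes tested, 7 were called (9.59%), beside 8.97% of all genes tested (3.73% higher and 5.24% lower), so again the share was near that of all genes. CNOT8, CNOT7, XRN1, TNRC6A and PAN3 were lower and PUM3 and ZFP36L2 were higher. The median was -0.05 over the decay genes and 0.08 over all genes.

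For CNOT8 the log2 ratio was lower by 2.94 in eIF4E1b (a difference of -2.94 ± 0.33, DESeq2 adjusted p 3.92e-15, edgeR adjusted p 0.000820), and the call held in all 11 fits that left out a library and in each of the 20 alternatives run. The 20 include those 11 fits and a run at a looser threshold. CNOT8 was the 1 decay gene that edgeR called at 0.005, beside 1.56% of all genes. At an adjusted p under 0.05 edgeR called 8 decay genes, beside 10.5% of all genes (4.65% higher and 5.81% lower). XRN1 differed by -1.65 ± 0.35 (DESeq2 adjusted p 6.07e-05) and PUM3 by 1.73 ± 0.41 (0.000536), and both calls held whichever of the 11 libraries was left out. For PUM3 the DESeq2 adjusted p rose to 0.004997, just under the threshold, without the first eIF4E1b input. Neither call held in edgeR (adjusted p 0.00705 and 0.0139) or in limma voom (0.0202 and 0.0165), which weighted RIP and input libraries separately.

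CNOT7 differed by -2.49 ± 0.62 (DESeq2 adjusted p 0.00113) and TNRC6A by -1.45 ± 0.36 (0.00118), and each call held in 6 of 11 fits. Without the first eIF4E1c RIP library the CNOT7 difference was -1.36. With each RIP paired to its input by number, 4 of the 7 calls held (CNOT8, XRN1, PUM3 and ZFP36L2). CNOT7 (DESeq2 adjusted p 0.0115), TNRC6A (0.00646) and PAN3 (0.0162) lost theirs. Which input belongs to the second eIF4E1c RIP library is not settled. The ratio was not fitted with that library paired to the third input. ZFP36L2 differed by 1.76 ± 0.48 (0.00304) with 4 of 11 fits, and PAN3, the closest to the threshold, by -1.08 ± 0.31 (0.00490) with 2 of 11. UPF3B stood at 1.57 ± 0.51 and was not called (DESeq2 adjusted p 0.0161).

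**Figure D4:**
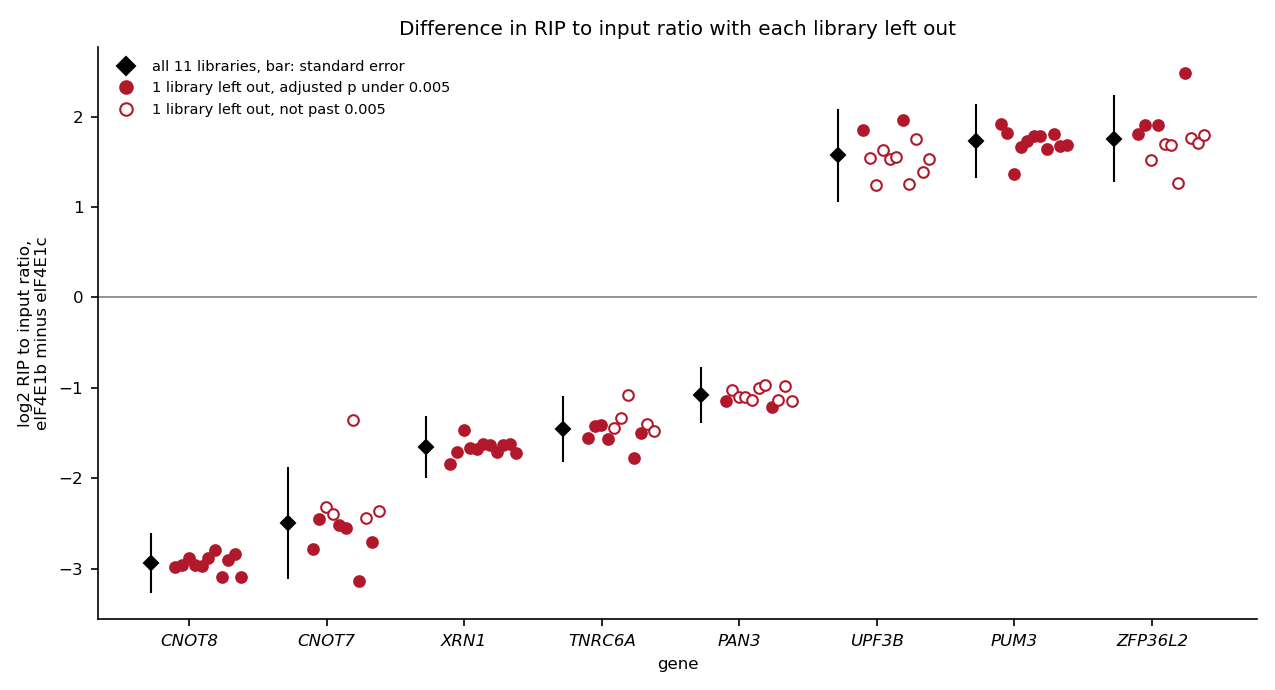
The y axis is the difference in log2 RIP to input ratio, eIF4E1b minus eIF4E1c. Diamonds show the fit over all 11 libraries with its standard error, circles the fits with 1 library left out, filled where the adjusted p was under 0.005. All 11 circles are filled for CNOT8 (between -3.09 and -2.79), XRN1 and PUM3, and 2 are filled for PAN3.

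A list of 43 further genes for mRNA storage, the poly(A) tail, the exosome's cofactors and the exon junction complex was read from the same fits. The list was chosen with earlier results of these data known, so its shares are not read as traits of the list. Between the RIPs, 1 of 39 tested (2.56%) was called, beside 7.95% of all genes. It was pabpc1a, a cytoplasmic poly(A)-binding protein, with 2402, 4229 and 4626 normalized counts in eIF4E1b RIP, against 21152 and 11042 in eIF4E1c RIP, and a log2 fold change of -2.17 ± 0.46 (DESeq2 adjusted p 0.000101, edgeR 0.0191). No eIF4E1b library overlapped an eIF4E1c library. Its relatives PABPC1L, at 0.80 ± 0.40, and pabpc1b, at -1.33 ± 0.93, were not called. The median over the list was -0.29. Among inputs 0 of 40 were called by DESeq2, beside 2.33% of all genes. Against their own inputs, 28 of 40 were called in eIF4E1b RIP (70%, beside 46.2% of all genes), and 15 of 40 in eIF4E1c RIP (37.5%, beside 34%).

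In the ratio, 8 of 40 of these genes were called, 6 lower and 2 higher. This was 20%, beside 8.97% of all genes, for a list chosen with earlier results of these data known. The lower ones were pabpc1a (-1.89 ± 0.45), MAGOHB (-1.65 ± 0.45) and EIF4A3 (-1.19 ± 0.34), core proteins of the exon junction complex, MTREX (-1.48 ± 0.33), the helicase of the nuclear exosome, LSM14A (-1.40 ± 0.31), a repressor of translation in stored mRNPs, and KHSRP (-1.18 ± 0.29), which binds AU-rich elements. The higher ones were SKIC2 (1.29 ± 0.34), the helicase of the cytoplasmic exosome, and TENT4B (1.14 ± 0.29), a non-canonical poly(A) polymerase. DESeq2 adjusted p-values ran from 0.00016 for MTREX to 0.00449 for EIF4A3. Fits with a library left out or with the replicate block are not given here for these genes. edgeR called none of these 8 at 0.005, with adjusted p-values between 0.00943 and 0.0264. DDX6, a helicase of decapping and mRNA storage, stood at -1.05 ± 0.35 and was not called.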

How the data were processed

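RIP and input libraries of 8-cell zebrafish embryos were sequenced on a NovaSeq instrument. Per the labels, the SMARTer Ultra Low RNA kit was used for RIP, and a stranded SMARTer kit with removal of ribosomal RNA for input. For each library the authors deposited 1 table of raw read counts by Ensembl gene (GRCz11), not normalized. The submitters' processing notes name Trim Galore 0.5.0, Bowtie2 2.3.4.1, featureCounts (Subread 1.6.2), DESeq2 1.18.1 and R 3.4.1. How strand and reads with several matches were handled, and which annotation release was used, are not given in the sources used here, so overlapping, antisense and duplicated genes carry that doubt.

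Counts were used as deposited. Of the 32520 genes, 29201 had a symbol in the table of names used, often in the capitals of the human gene. Positions, sequences and the values of some single genes are not reported here. Members, roles and lists were chosen with earlier results of these data known. Groups follow the labels, which call the samples biological replicates. Each comparison was fitted on the whole table with the Wald test of DESeq2 1.42.0 (R 4.3.3; median-of-ratios scaling, independent filtering, unshrunken fold changes, two-sided, Benjamini-Hochberg adjusted over all genes), after the study's methods. The ratio is the interaction term of bait with pull-down. Normalized counts were scaled over all 11 libraries together. Genes without an adjusted p in DESeq2 were left out of counts of tested genes. Named genes are those called between RIPs, between inputs or in the ratio, the 3 of lowest adjusted p in either direction when a RIP is set against its input, CNOT8 and close paralogues. CNOT1, CNOT3, CNOT9, UPF1, UPF3B, upf3a, BTG4, EXOSC1, TNRC6C, LSM5, CNOT4, parn, DCP2, EDC3, EDC4 and DDX6 were added after their values were seen. So were PABPC1L and pabpc1b. CNOT6, CNOT6L, cnot6b, PUM2 and ZFP36L1 ENSDARG00000016154 were also named outside the rule for named genes. Alternatives were edgeR 4.0.16 (quasi-likelihood, TMM, filterByExpr), limma 3.58.1 voom for the ratio, other scalings, filters and thresholds, replicate blocks and each library left out; edgeR at 0.05 was added after seeing the data. The computations were tested on simulated data.

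No libraries agreed within sampling noise (chi-square per degree of freedom 12.1 to 139), so each was counted once. The limit that a count of 0 allows, 3 counts, lay between 0.214 and 0.432 CPM and covers counting error only. Same-numbered eIF4E1b RIP and input libraries deviated together (r across genes 0.445, 0.266 and 0.481), and per the study's methods an input is an aliquot of the lysate, so these numbers pair libraries. For eIF4E1c the same aliquots pair RIP and input, but the table of the second RIP library is named with the number 3, and which input belongs to it is not settled: r was 0.205 for the first pair, and 0.0858 with the second or 0.176 with the third input for the other.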

Additional observations from a re-analysis of the deposited data

Results flagged for a closer look

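The RIP to input ratio of 7 decay genes differed between eIF4E1b and eIF4E1c by the direct test of that difference, with an adjusted p under 0.005 in DESeq2. As differences in log2 ratio, eIF4E1b minus eIF4E1c, they were -2.94 for CNOT8, -2.49 for CNOT7, -1.65 for XRN1, -1.45 for TNRC6A, -1.08 for PAN3, 1.73 for PUM3 and 1.76 for ZFP36L2. With RIP and input paired by number the calls of CNOT7, TNRC6A and PAN3 were lost. The ratio was not fitted with the second eIF4E1c RIP library paired to the third input. edgeR at the same threshold called CNOT8 alone among them, and at an adjusted p under 0.05 it called 8 of the decay genes, beside 10.5% of all genes. No group held 4 or more libraries, so no single library could be tested as standing apart from its group.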

How the results depend on the processing

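Between the RIPs, 5 decay genes were called, against 0 in edgeR, 8 at an adjusted p under 0.05, 3 with scaling to total counts, 2 with the replicate block and 14 with all 11 libraries in a single fit. With 1 library left out the number lay between 1 and 9, with 1 without the second and 1 without the third eIF4E1b RIP library, and 9 without the second eIF4E1c RIP library. For the ratio, 7 were called, against 1 in edgeR, 1 in limma voom, 14 at an adjusted p under 0.05, 4 with the replicate block, and between 3 and 14 with 1 library left out. For eIF4E1c RIP against its input, 40 were called, against 24 with the replicate block, 25 with that block and the second RIP library paired to the third input, and 27 to 48 with 1 library left out. Numbers for eIF4E1b RIP against its input lay between 50 and 61 and the block gave 57 and changed no call of the named genes tried there. The inputs had 0 in every fit. The causes of these shifts were not tested. Beyond the main fits and edgeR, the shares of all genes called under these settings are not given here. The shifts are therefore not read as particular to the decay genes.

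Of 630 values of named genes under alternatives, 1 changed sign. Some alternatives changed only the threshold or the independent filtering. Their log2 fold changes repeat those of another fit, so they are no further check of sign. The value that changed was the uncalled TNRC6A in eIF4E1c RIP against its input, at 0.24 without the second eIF4E1c RIP library. Over the fits that left out a library it lay between -0.45 and 0.24. Same-numbered libraries of the 2 proteins did not deviate together (r across genes between -0.05 and 0.09). Why calls were lost under a block across proteins was not tested. In the block between the RIPs, the third eIF4E1b library had no partner and did not inform the fold change. In eIF4E1c RIP against its input and in the ratio, the block left an eIF4E1c input without a partner. Scaling to total counts moved the median of all genes to -0.12 between the RIPs and -0.17 for the ratio. For eIF4E1b and eIF4E1c RIP against input it moved to -0.38 and -0.21. Against input, 20 decay genes were then higher and 37 lower for eIF4E1b, and 15 and 22 for eIF4E1c. The share of all genes called under that scaling is not given here.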
